A study of Mus musculus with 18 samples.

Results

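The cytochrome P450 genes of families 1 to 4 were described across 18 kidney RNA libraries from ICR mice aged 10 weeks. Members were the rows of the deposited table whose symbol is Cyp1, Cyp2, Cyp3 or Cyp4 followed directly by a letter and digits, with 2 genes left out by name and pseudogene names not taken. This gave 73 of the 19545 entries, of which 29 reached 1 FPKM in at least 3 libraries and are described in detail. FPKM scales the reads of a gene to its length and to the size of the library, so levels can be set side by side between genes. The 6 groups held 3 libraries each. They were mice given STZ and a faecal transfer labelled AOS10mg/kg-FMT (STZ+AOS-FMT), STZ and a transfer labelled control-FMT (STZ+control-FMT), STZ with AOS at 10 mg/kg (STZ+AOS), STZ, AOS at 10 mg/kg without STZ (AOS), and no treatment beyond the control label (control). STZ is commonly short for streptozotocin, which kills insulin-producing beta cells, and FMT for transfer of faecal microbes; AOS is not spelled out in the labels. The labels do not give the sex of the mice, doses or days of STZ, the blood glucose reached or the source of the transferred material beyond its name. By its design text, the series looks at what transfer does in kidneys damaged with STZ.

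P450 enzymes are haem proteins of the endoplasmic reticulum that add an oxygen atom to fats, steroids and foreign compounds, with electrons passed on by P450 oxidoreductase. In the kidney most of them sit in the proximal tubule. The Cyp4 enzymes hydroxylate fatty acids at the far end of the chain, and on arachidonic acid this makes 20-HETE, which constricts small vessels, whereas Cyp2c and Cyp2j enzymes make epoxides of the same fatty acid, which relax vessels. Several mouse members differ between males and females or respond to androgen, and others are switched on by the fatty acid receptor PPAR-alpha, the dioxin receptor Ahr or the xenobiotic receptor CAR. The 29 described members were 2 of 3 in family 1, 16 of 45 in family 2, 0 of 8 in family 3 and 11 of 17 in family 4. By mean FPKM summed over a subfamily, Cyp2e (Cyp2e1 alone) came first with 1450.4, then Cyp4a with 775, Cyp2j with 705, Cyp2a with 391 and Cyp2d with 207, while Cyp4f came to 37.1 and Cyp3a to 0.756.

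The libraries labelled control 3 and STZ 1 stood apart from the others of their groups in these genes. Control 3 had 831 FPKM of the fatty acid hydroxylase Cyp4a10, against 93.7 and 77.6 in controls 1 and 2. STZ 1 had 94.3, against 431 and 898 in STZ 2 and 3. Cyp4a14, Cyp2c23 and Cyp2s1 set the same 2 libraries apart from their groups, as the plot of all described members by library shows. In Kap, an androgen-regulated transcript of the tubule, control 3 had 15798 FPKM, near the 14615 of STZ 3 but far under the 63552 of STZ 2. STZ 1 had 144830.4, near the 145522 and 150876 of controls 2 and 1. Each thus resembled libraries of the other group in these genes. Control 3 was unlike all 3 STZ libraries in its adrenal cortex transcripts, given below. The labels were kept as given, and whether they are right was not tested. Results that rest on the control or STZ group are read under this doubt, and values without these 2 libraries stand beside them. Since the 2 were picked by their values of these same genes, such values are a description, with no test, in every comparison that holds STZ or control. Counts of members past the threshold without the 2 support no call. Transcripts of the adrenal cortex, which lies against the kidney, summed over 8 marker genes to 2535, 118 and 1788 FPKM in STZ+AOS, 1.69, 41.8 and 56.9 in STZ, 1.89, 2.01 and 2.22 in AOS and 1.75, 1.64 and 922 in control, and to 1.2 to 2.52 in the 6 transfer libraries. The 8 markers of the proximal tubule summed to 2239.7, 3128 and 2512 FPKM in STZ+AOS, 4928, 3609.8 and 3327 in STZ, 4515, 4444 and 4673 in AOS and 4202, 4561 and 3109 in control. Markers of spermatids, 4 genes, summed to 18.2 to 74.3 FPKM in STZ and 26.1 to 37.1 in control, against 0 to 0.18 in the other 12 libraries. Comparisons of these 12 with STZ or control thus have them on 1 side, and STZ against control has them on both. In bulk tissue, fewer cells of a type and less RNA per cell cannot be told apart, and this holds for each level below.

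**Figure D1:**
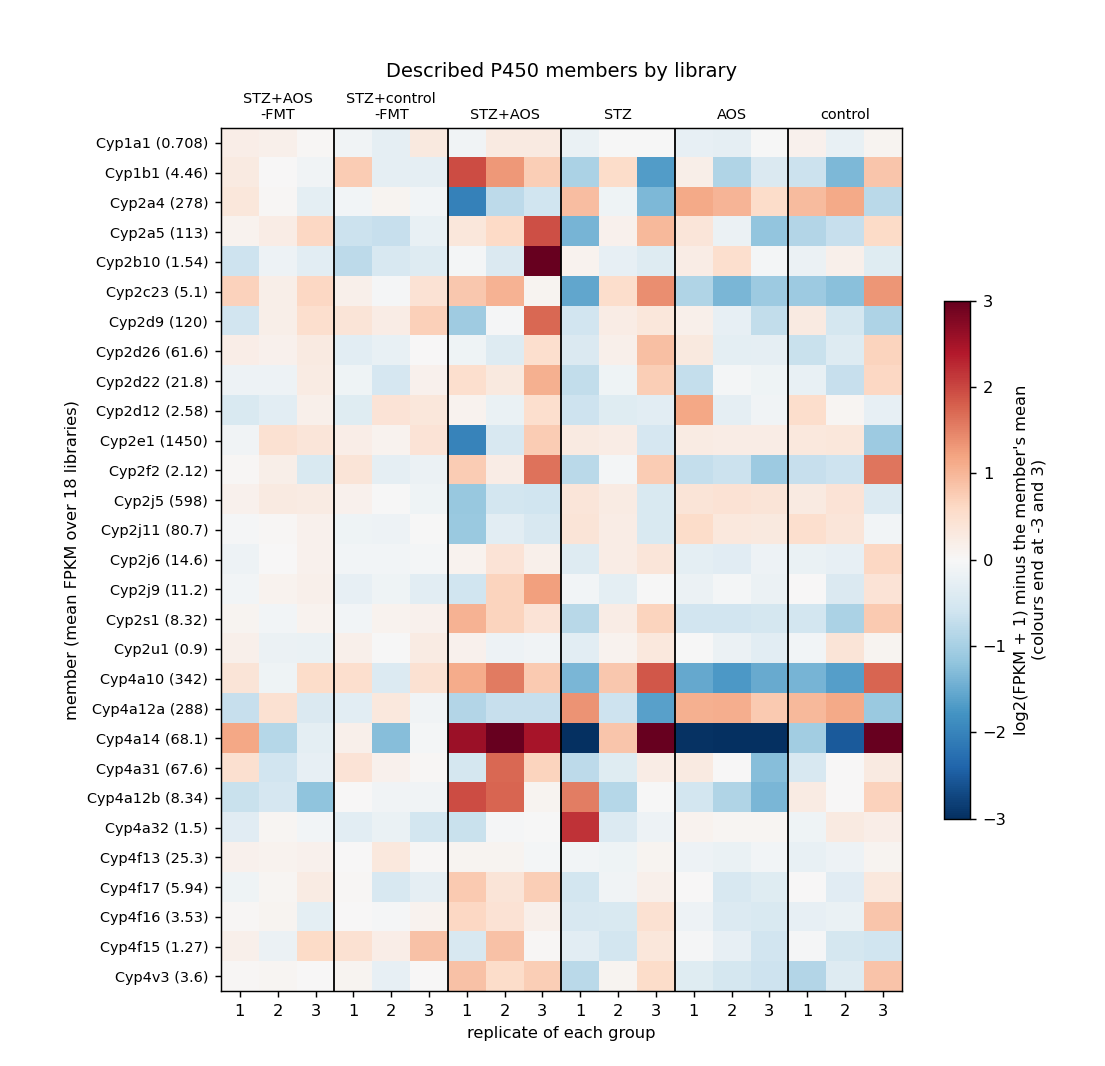
Each row is 1 of the 29 described members, with its mean FPKM over the 18 libraries in parentheses, and each column is 1 library; the colour is log2(FPKM + 1) minus the mean of that member, from blue (lower) to red (higher). Cyp4a14 and Cyp4a10 are blue in the 3 AOS libraries, controls 1 and 2 and STZ 1 and red in the 3 STZ+AOS libraries, STZ 3 and control 3, and Cyp4a12a and Cyp2a4 run the other way.

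STZ+AOS set against AOS gave 14 calls among these genes, and the other 7 comparisons gave 1 between them. There 10 of the 29 described members rose, 4 fell and 15 did not pass. Those that rose included the fatty acid hydroxylases Cyp4a10, Cyp4a14 and Cyp4a12b, the Ahr target Cyp1b1 and the epoxygenase Cyp2c23, and those that fell were Cyp2j5, Cyp2j11, Cyp2a4 and Cyp4a12a. The test was limma on log2(FPKM + 1) over 12682 genes, adjusted by Benjamini-Hochberg with a threshold of 0.05. Over all genes it called 46.5% in this comparison, 39.3% higher and 7.18% lower, so the 48.3% of members called lies near the background. The share called lower was 13.8% of members, a share resting on 4 genes. The median difference of all genes was 0.29 on the log2 scale and that of the 29 members 0.56, and 19 of the 29 lay above the median of all genes. Groups did not overlap for 13 members on the higher side (49.7% of all genes) and 5 on the lower side (9.75% of all genes). Without STZ+AOS 1 the count fell to 8 (27.9% of all genes), and without AOS 3 to 8 (27.7% of all genes). Differences below are log2 differences with their standard error, and the p-values measure only the spread between these samples, since no label says that each came from another mouse.

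A single member rose in STZ+AOS against STZ, Cyp4f17, which is 3.45% of the 29, against 4.53% of all genes called, 3.44% higher and 1.1% lower. Groups did not overlap there for 3 members on the higher side (20.2% of all genes) and 1 on the lower side (4.01% of all genes). That count was 0 without STZ+AOS 1, STZ+AOS 3, STZ 1 or STZ 2, 3 without STZ+AOS 2 (11% of all genes), 8 without STZ 3 (26.4% of all genes), and 0 with control 3 and STZ 1 left out (0.158% of all genes). In AOS against control limma called 0 members (0.071% of all genes), and 1 had an unadjusted p under 0.05 (4.11% of all genes). For STZ against control the count was 0 (0% of all genes), with 0 members and 1.27% of all genes at an unadjusted p under 0.05. With control 3 and STZ 1 left out, an alternative added once the data had been seen, 9 members were past the threshold in that comparison, 7 higher and 2 lower, and 8.71% of all genes, a count that the choice of libraries by these genes bears on and that supports no call. STZ+AOS-FMT against STZ gave 0 members (0.11% of all genes) and STZ+control-FMT against STZ gave 0 (0.103% of all genes), with 0 members at an unadjusted p under 0.05 in either, where 3.78% and 2.22% of all genes had one. Between STZ+AOS-FMT and STZ+control-FMT the count was 0 (0% of all genes), again with 0 members and 1.65% of all genes at an unadjusted p under 0.05. The interaction (the difference of STZ+AOS from STZ less that of AOS from control) called 0 members (0% of all genes), and 9 members and 33.4% of all genes had an unadjusted p under 0.05. Without STZ 3 it called 6 members (24% of all genes), and without STZ+AOS 2 it called 2 (6.25% of all genes). With control 3 and STZ 1 left out the counts for AOS against control and both transfer groups against STZ were again 0. So were those for the transfer groups against each other and the interaction. The shares of all genes in that setting are not given here, so these counts are not read as results about the members.

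**Figure D2:**
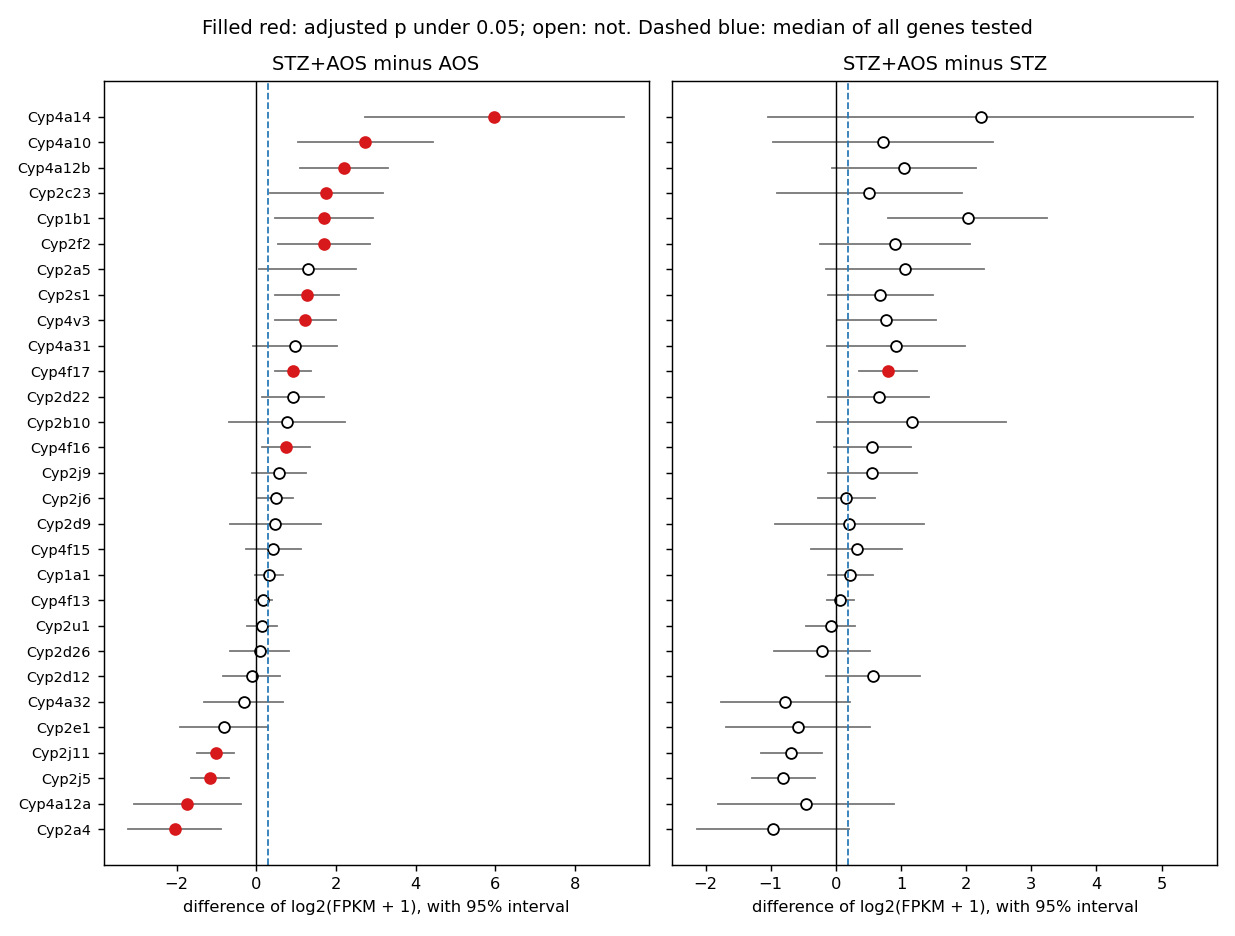
Log2 differences of the 29 described members with their 95% intervals, STZ+AOS minus AOS on the left and STZ+AOS minus STZ on the right; filled points passed the adjusted threshold and the dashed line is the median of all genes tested. On the left 10 filled points lie above 0 and 4 below, and on the right Cyp4f17 alone is filled.

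The Cyp4a genes lie in tandem on chromosome 4 (115299046 to 115621602 in mm10), where 7 members span 322557 bases and 6 were described. Cyp4a10 (chromosome 4, 115518264 to 115533649), a hydroxylase of medium and long fatty acids and a classic PPAR-alpha target, had 534, 729.8 and 425 FPKM in STZ+AOS, 94.3, 431 and 898 in STZ, 84.8, 74.4 and 85.7 in AOS and 93.7, 77.6 and 831 in control. It had 323, 226 and 364 FPKM in STZ+AOS-FMT and 350.5, 186 and 342 in STZ+control-FMT. The 3 AOS libraries, controls 1 and 2 and STZ 1 thus lay under 100 FPKM, and the other 12 above 185. STZ+AOS and AOS did not overlap, and Cyp4a10 rose in STZ+AOS against AOS by 2.74 ± 0.79 (adjusted p = 0.0152), with means of 563 ± 154 and 81.7 ± 6.28 FPKM (SD, n = 3 each). STZ minus control was 0.86 ± 0.79 (adjusted p = 1.00), and 2.85 with control 3 and STZ 1 left out, where Cyp4a10 itself had set them apart.

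Cyp4a14 (chromosome 4, 115486200 to 115496142, the opposite strand to Cyp4a10), another PPAR-alpha target, varied most of the members described that were above 0 in every library, by 326-fold between its highest and lowest library. It had 116, 234 and 109 FPKM in STZ+AOS, 1.26, 34 and 375 in STZ, 1.54, 1.15 and 1.23 in AOS and 8.56, 2.42 and 227 in control, and 43, 9.85 and 15.1 FPKM in STZ+AOS-FMT and 20.9, 7.18 and 18 in STZ+control-FMT. The AOS libraries were all under 2 FPKM and the STZ+AOS libraries all above 100, and the 6 transfer libraries lay in between. It rose in STZ+AOS against AOS by 5.97 ± 1.52 (adjusted p = 0.00986). The means were 153 and 1.31 FPKM, 117-fold apart. Controls 1 and 2, at 8.56 and 2.42, were above all 3 AOS libraries too, but AOS minus control was -3.09 ± 1.52 (adjusted p = 0.817). That value rested on control 3, at 227 FPKM, and was -1.31 (adjusted p = 1.00) without it.

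Cyp4a12a (chromosome 4, 115299046 to 115332815), the main 20-HETE synthase of the male mouse kidney and a gene known to depend on androgen, ran the other way. Its values were 129, 149 and 148 FPKM in STZ+AOS, 616, 155 and 76.7 in STZ, 502, 513 and 411 in AOS and 468, 527 and 110.1 in control, and 147, 331 and 177 FPKM in STZ+AOS-FMT and 192, 299 and 223 in STZ+control-FMT. AOS lay above STZ+AOS without overlap, and Cyp4a12a fell in STZ+AOS against AOS by 1.73 ± 0.63 on the log2 scale (adjusted p = 0.0377). The call was lost without any 1 of the 6 libraries compared, with adjusted p up to 0.0931. STZ 1, at 616 FPKM, was the highest of the 18 libraries and STZ 3, at 76.7, the lowest.

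Its near copy Cyp4a12b (chromosome 4, 115411624 to 115439034) was far lower, with 27.6, 23.6 and 6.88 FPKM in STZ+AOS, 20.4, 3.07 and 6.28 in STZ, 4.04, 2.96 and 1.86 in AOS and 7.83, 6.4 and 10.9 in control, and 2.18 to 6.48 in the 6 transfer libraries. Cyp4a12b rose in STZ+AOS against AOS by 2.20 ± 0.52 (adjusted p = 0.00808), opposite to Cyp4a12a. The ratio of Cyp4a12a to Cyp4a12b was 4.68, 6.29 and 21.6 in STZ+AOS and 124, 173 and 221 in AOS. Of the 50-base words of the Cyp4a12a transcript, 48.9% also occur in Cyp4a12b, and of those of Cyp4a12b 49.4% occur in Cyp4a12a. How reads that match both were counted is not given in the sources used here, so the levels of this pair are uncertain. AOS minus control for Cyp4a12b was -1.26 ± 0.52, the smallest p of any member there, without overlap but with an adjusted p of 0.817, and -1.07 (adjusted p = 1.00) without control 3. Groups did not overlap for 10.2% of all genes on the lower side of that comparison and 2.89% on the higher side.

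Cyp4a31 and Cyp4a32, which are close relatives of Cyp4a10, showed no call. Cyp4a31 had 42.1, 202 and 97.2 FPKM in STZ+AOS, 35, 47.1 and 71.4 in STZ, 72.9, 61.1 and 24.4 in AOS and 43, 61.5 and 73.8 in control, and 40.1 to 84.7 in the transfer libraries. STZ+AOS 2 was the highest, and STZ+AOS and AOS overlapped (difference 0.96 ± 0.49, adjusted p = 0.117). Cyp4a32 had 0.4, 1.15 and 1.18 FPKM in STZ+AOS, 9.02, 0.66 and 0.98 in STZ, 1.38, 1.31 and 1.32 in AOS and 1.01, 1.65 and 1.55 in control, and 0.52 to 1.29 in the transfer libraries, so that 17 libraries lay at or under 1.65 and STZ 1 at 9.02. STZ+AOS-FMT minus STZ was -0.66 ± 0.46 for Cyp4a32 (adjusted p = 1.00) and turned to 0.17 without STZ 1 (adjusted p = 0.882), and was the same size with control 3 left out too. Words of 50 bases shared with another gene made up 46.8% of Cyp4a32, 29.8% of Cyp4a10 and 20.6% of Cyp4a31, and 0.245% of Cyp4a14.

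Summed over the 6 described members, Cyp4a transcripts came to 849, 1339 and 788 FPKM in STZ+AOS, 776, 671 and 1429 in STZ, 667, 654 and 525 in AOS and 622, 677 and 1255 in control. The make-up of that sum divided the libraries more than the sum did. Cyp4a12a was 75.2% to 79.4% of it in the 3 AOS libraries, controls 1 and 2 and STZ 1, and 5.37% to 54.1% in the other 12. Cyp4a10 was 11.4% to 16.3% in the first 6 and 32.9% to 66.2% in the other 12. Cyp4a10 exceeded Cyp4a12a in all 3 STZ+AOS libraries, by 4.13, 4.91 and 2.87 times, and was 0.169, 0.145 and 0.209 of it in AOS. Of the transfer libraries, replicate 2 of each group had more Cyp4a12a than Cyp4a10, with ratios of Cyp4a10 to Cyp4a12a of 0.682 in STZ+AOS-FMT 2 and 0.621 in STZ+control-FMT 2.

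**Figure D3:**
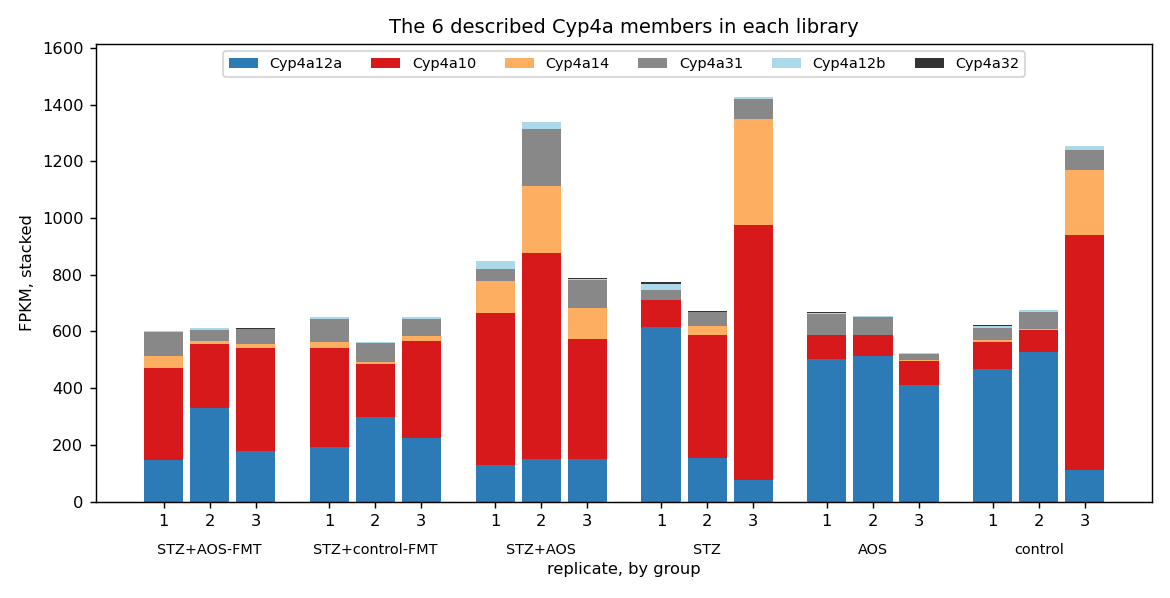
Stacked FPKM of the 6 described Cyp4a members in each of the 18 libraries, by group, with replicates 1 to 3 from left to right. Cyp4a12a (blue) fills most of the bars of AOS, controls 1 and 2 and STZ 1, and Cyp4a10 (red) with Cyp4a14 (orange) most of those of STZ+AOS, STZ 2 and 3 and control 3, where the tallest bar, STZ 3, reaches 1429 FPKM.

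The Cyp4f enzymes hydroxylate long fatty acids and inflammatory lipids such as leukotriene B4, and 4 of the 9 members were described, all on chromosome 17. Cyp4f17 (chromosome 17, 32506050 to 32530143) had 10.6, 7.74 and 10.2 FPKM in STZ+AOS, 3.59, 5.23 and 6.45 in STZ, 5.7, 3.77 and 4.18 in AOS and 5.77, 4.28 and 7.28 in control, and 3.8 to 6.88 in the transfer libraries. All 3 STZ+AOS libraries lay above the other 15, and the share of all genes that did so was not counted. Cyp4f17 rose in STZ+AOS against STZ by 0.80 ± 0.21 (adjusted p = 0.0478), from limma, and against AOS by 0.93 ± 0.21 (adjusted p = 0.00738). The first call was lost without STZ+AOS 1, STZ+AOS 3, STZ 1 or STZ 2, where adjusted p reached 0.224. The difference was 0.61 with control 3 and STZ 1 left out. The call against AOS held without each library in turn. The interaction for Cyp4f17 was 1.08 ± 0.30 (adjusted p = 0.0771), and 0.74 with control 3 and STZ 1 left out.

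Cyp4f13 (chromosome 17, 32924688 to 32947402) was the steadiest member described, at 21.5 to 31.8 FPKM over the 18 libraries, and none of its differences passed. STZ+AOS-FMT lay above STZ without overlap for Cyp4f13 (27.6, 27.1 and 27.8 FPKM in STZ+AOS-FMT and 23.7, 23 and 26.9 in STZ). The difference was 0.16 ± 0.10 (adjusted p = 1.00), and 0.14 with control 3 and STZ 1 left out. Groups did not overlap for 5.5% of all genes on that side. Cyp4f16 had 5.71, 4.91 and 3.86 FPKM in STZ+AOS, 2.12, 2.2 and 5.04 in STZ, 2.91, 2.3 and 2.18 in AOS and 2.67, 2.78 and 6.83 in control, and rose in STZ+AOS against AOS by 0.74 ± 0.28 (adjusted p = 0.0404). That call was lost without 5 of the 6 libraries, all but STZ+AOS 3 (adjusted p up to 0.126), and 26.0% of its words occur in another gene, most of them in Cyp4f37. Cyp4f15 ranged from 0.43 to 2.94 FPKM. Its STZ+control-FMT values of 1.95, 1.47 and 2.94 FPKM overlapped those of STZ (0.73, 0.46 and 1.71), with a difference of 0.69 ± 0.33 (adjusted p = 1.00), and 0.62 with control 3 and STZ 1 left out. Cyp4v3 (chromosome 8, 45304944 to 45333216), the mouse counterpart of human CYP4V2, which is mutated in a retinal dystrophy, had 6.86, 5.27 and 6.13 FPKM in STZ+AOS, 1.44, 3.55 and 5.29 in STZ, 2.33, 1.98 and 1.77 in AOS and 1.32, 2.26 and 6.8 in control. It rose in STZ+AOS against AOS by 1.23 ± 0.36 (adjusted p = 0.016), without overlap, and the call was lost without STZ+AOS 1 or AOS 3 (adjusted p up to 0.0526).

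Cyp2j5 (chromosome 4, 96628773 to 96664154), an arachidonic acid epoxygenase of the proximal tubule, was the second most abundant member, with a mean of 598 FPKM over the 18 libraries. It had 258, 394 and 382 FPKM in STZ+AOS, 740.2, 676 and 419 in STZ, 754, 774 and 748 in AOS and 697, 763 and 429 in control, and 631, 689 and 680.1 FPKM in STZ+AOS-FMT and 629.8, 572 and 525 in STZ+control-FMT. All 3 STZ+AOS libraries lay under the other 15, and how many of all genes did so was not counted. Cyp2j5 fell in STZ+AOS against AOS by 1.16 ± 0.23 on the log2 scale (adjusted p = 0.00591, limma), and this held without each library in turn. Against STZ the groups did not overlap either, but the difference of -0.81 ± 0.23 just missed the threshold (adjusted p = 0.0522). It passed without STZ+AOS 2 (0.0371) or STZ 3 (0.0134), and was -0.65 with control 3 and STZ 1 left out. The interaction was -1.12 ± 0.32 (adjusted p = 0.0771), and -0.71 with control 3 and STZ 1 left out. The 250 bases before its annotated start in RefSeq (GRCm38.p6, chr4:96664120-96664369, minus strand) are shown because the gene had the smallest p among the members, with AGGTCA, the core site bound by many nuclear receptors, in capitals at positions 54 to 59 counted from the 5′ end.
Cyp2j5: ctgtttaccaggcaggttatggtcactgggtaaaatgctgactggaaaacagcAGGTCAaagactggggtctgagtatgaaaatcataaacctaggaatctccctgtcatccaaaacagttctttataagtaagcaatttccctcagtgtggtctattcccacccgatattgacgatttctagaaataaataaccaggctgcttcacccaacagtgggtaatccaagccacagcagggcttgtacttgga
The letters AGGTCA, on either strand, were found in 4 of 19 described members with a RefSeq promoter. They were found in 16.3% of the 32851 mouse promoters of the same length, which is 250 bases before to 50 after the start. The 4 are Cyp2j5, Cyp2f2 and the near copies Cyp2a4 and Cyp2a5, which are not independent of each other.

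The 4 described Cyp2j genes lie together on chromosome 4 with 2 that were not described, Cyp2j8 and Cyp2j12 (6 members within 564837 bases). Cyp2j11 (chromosome 4, 96294508 to 96348662) had 35.5, 62.1 and 55.7 FPKM in STZ+AOS, 101, 91.4 and 56.5 in STZ, 115, 97.2 and 95.9 in AOS and 111, 100.2 and 73.3 in control, and 69.4 to 85.4 in the transfer libraries. It fell in STZ+AOS against AOS by 1.02 ± 0.22 on the log2 scale (adjusted p = 0.00664), without overlap, and kept the call without each library in turn. Cyp2j6 and Cyp2j9 had no call. Cyp2j6 had 15.6, 19.3 and 16.1 FPKM in STZ+AOS, 10.7, 16.8 and 18.6 in STZ, 11.5, 11.1 and 12.9 in AOS and 12.4, 11.9 and 22.5 in control (difference to AOS 0.49 ± 0.21, adjusted p = 0.0657). Cyp2j9 had 6.71, 17.4 and 26.3 FPKM in STZ+AOS, 10.1, 8.51 and 10.6 in STZ, 9.39, 10.2 and 9.39 in AOS and 10.8, 7.64 and 14.5 in control, with STZ+AOS 1 the lowest of the 18 libraries and STZ+AOS 3 the highest (difference to AOS 0.56 ± 0.32, adjusted p = 0.152). Between the 4 genes at most 1.34% of the 50-base words occur in another gene. Cyp2c23 (chromosome 19, 44005022 to 44029208), the other epoxygenase and formerly named Cyp2c44 in the mouse, had 7.75, 9.43 and 4.3 FPKM in STZ+AOS, 0.72, 6.26 and 12.3 in STZ, 1.7, 0.95 and 1.38 in AOS and 1.38, 1.11 and 11.7 in control, and 3.89 to 7.13 in the transfer libraries. AOS, controls 1 and 2 and STZ 1 were all at or under 1.70 FPKM. It rose in STZ+AOS against AOS by 1.76 ± 0.66 (adjusted p = 0.0427), a call lost without 5 of the 6 libraries, all but STZ+AOS 3 (adjusted p up to 0.111). It was the sole described member of the 15 Cyp2c genes.

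Cyp2a4 and Cyp2a5 are near copies on chromosome 7, known for hydroxylating steroids and coumarin. Cyp2a4 (chromosome 7, 26307169 to 26315088) had 57, 136 and 155 FPKM in STZ+AOS, 450.4, 216 and 92.8 in STZ, 523, 479 and 349 in AOS and 460.1, 520.2 and 135 in control, and 299, 243 and 192 FPKM in STZ+AOS-FMT and 223, 253 and 222 in STZ+control-FMT. STZ+AOS lay under AOS without overlap. Cyp2a4 fell in STZ+AOS against AOS by 2.05 ± 0.55 on the log2 scale (adjusted p = 0.0114), with means of 116 and 450.3 FPKM, and had an adjusted p of 0.0509 without STZ+AOS 1. STZ minus control was -0.61 ± 0.55 (adjusted p = 1.00), and -1.78 with control 3 and STZ 1 left out.

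Cyp2a5 (chromosome 7, 26835305 to 26843548) had 121, 146 and 367 FPKM in STZ+AOS, 35.8, 104 and 188 in STZ, 123, 85.1 and 41.6 in AOS and 51.5, 59.1 and 143 in control, and 104, 111 and 147 FPKM in STZ+AOS-FMT and 61, 58.9 and 82.1 in STZ+control-FMT. STZ+AOS 3 was the highest and STZ 1 the lowest, and STZ+AOS minus AOS was 1.29 ± 0.57 (adjusted p = 0.0731), with overlap. The 3 STZ+AOS-FMT libraries lay above the 3 STZ+control-FMT libraries, with a difference of 0.83 ± 0.57 (adjusted p = 1.00) and the smallest p of any member in that comparison. The ratio of Cyp2a4 to Cyp2a5 was 0.471, 0.933 and 0.422 in STZ+AOS, 12.6, 2.08 and 0.495 in STZ, 4.25, 5.63 and 8.39 in AOS and 8.93, 8.80 and 0.941 in control. Of the 50-base words, 38.8% of Cyp2a4 and 38.6% of Cyp2a5 occur in another gene, mostly in each other, so part of their reads may have been counted to either.

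The 250 bases before the start of each are shown to set the pair side by side, with the bases that differ in capitals (RefSeq, GRCm38.p6, both on the plus strand, chr7:26306942-26307191 and chr7:26835089-26835338). In the alignment 245 bases were identical, 4 differed and the windows were shifted by a base, which leaves a capital at the first base of one and the last of the other.
Cyp2a4: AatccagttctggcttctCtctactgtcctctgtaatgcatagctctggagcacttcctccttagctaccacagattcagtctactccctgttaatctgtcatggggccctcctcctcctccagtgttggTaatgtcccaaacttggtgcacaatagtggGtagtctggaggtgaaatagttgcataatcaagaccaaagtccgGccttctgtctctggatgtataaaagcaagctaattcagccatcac
Cyp2a5: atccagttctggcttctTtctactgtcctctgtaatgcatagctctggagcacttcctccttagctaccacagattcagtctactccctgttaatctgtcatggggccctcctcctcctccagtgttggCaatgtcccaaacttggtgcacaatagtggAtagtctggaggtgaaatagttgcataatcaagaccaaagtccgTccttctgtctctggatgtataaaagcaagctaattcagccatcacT
Both hold GTTAAT, the core of sites for Hnf1, a transcription factor of kidney and liver. So did 4 of the 19 promoters of described members and 7.1% of all. Those 4 are Cyp2a4, Cyp2a5, Cyp2d26 and Cyp4a32, so this near-identical pair is counted as if its promoters were independent. GTTAAT begins at position 91 in Cyp2a4 and at 90 in Cyp2a5.

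The Cyp2d genes lie on chromosome 15, where 4 of 8 members were described, and none was called in any comparison. Cyp2d9 (chromosome 15, 82433437 to 82456845), a testosterone hydroxylase known as male-specific in mouse liver, had 50.8, 104 and 355 FPKM in STZ+AOS, 71.6, 126 and 135 in STZ, 119.7, 90 and 64.5 in AOS and 130.3, 74.5 and 55.8 in control, and 72.1 to 176 in the transfer libraries. Both the highest value, 355, and the lowest, 50.8, were in STZ+AOS (difference to AOS 0.48 ± 0.54, adjusted p = 0.467). Cyp2d26 had 53.7, 44.6 and 84.4 FPKM in STZ+AOS, 43.2, 66.2 and 111 in STZ, 72.9, 47.7 and 49.2 in AOS and 36.8, 45.1 and 94.1 in control, and was higher in each STZ+AOS-FMT library (64.7 to 71) than in any STZ+control-FMT library (47.6 to 59.8), with a difference of 0.36 ± 0.35 (adjusted p = 1.00). Cyp2d22, the mouse gene closest to human CYP2D6, had 29.3, 25.4 and 44 FPKM in STZ+AOS, 11.8, 18.7 and 35 in STZ, 12.1, 19.8 and 18.8 in AOS and 17.6, 12.4 and 32.1 in control (STZ+AOS minus AOS 0.91 ± 0.36, adjusted p = 0.0518). Cyp2d12 ranged from 1.23 to 6.58 FPKM. Its STZ values of 1.23, 1.63 and 1.73 lay under the control values of 3.87, 2.57 and 1.89 without overlap, the smallest p of any member for STZ against control, with a difference of -0.55 ± 0.34 (adjusted p = 1.00), and -0.64 with control 3 and STZ 1 left out. On that side groups did not overlap for 2.08% of all genes.

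Cyp2e1 (chromosome 7, 140763739 to 140774987), which oxidises ethanol, acetone and small solvents and is known to rise with ketone bodies in liver, was the most abundant member, with a mean of 1450.4 FPKM over the 18 libraries. It was the highest member in 16 libraries, and Cyp4a10 in STZ+AOS 1 and control 3. Its values were 332, 971 and 2267 FPKM in STZ+AOS, 1630.3, 1576 and 953 in STZ, 1593, 1580.2 and 1558 in AOS and 1684, 1701 and 636 in control, and 1254, 1853 and 1733 FPKM in STZ+AOS-FMT and 1546, 1454 and 1786 in STZ+control-FMT. STZ+AOS held both the lowest library, 332, and the highest, 2267, and AOS spanned 1558 to 1593. No comparison passed for Cyp2e1, with STZ+AOS minus AOS at -0.81 ± 0.51 (adjusted p = 0.2), 95% interval -1.91 to 0.29. Among all genes its FPKM ranked between 13 and 278 from the top in a library.

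**Figure D4:**
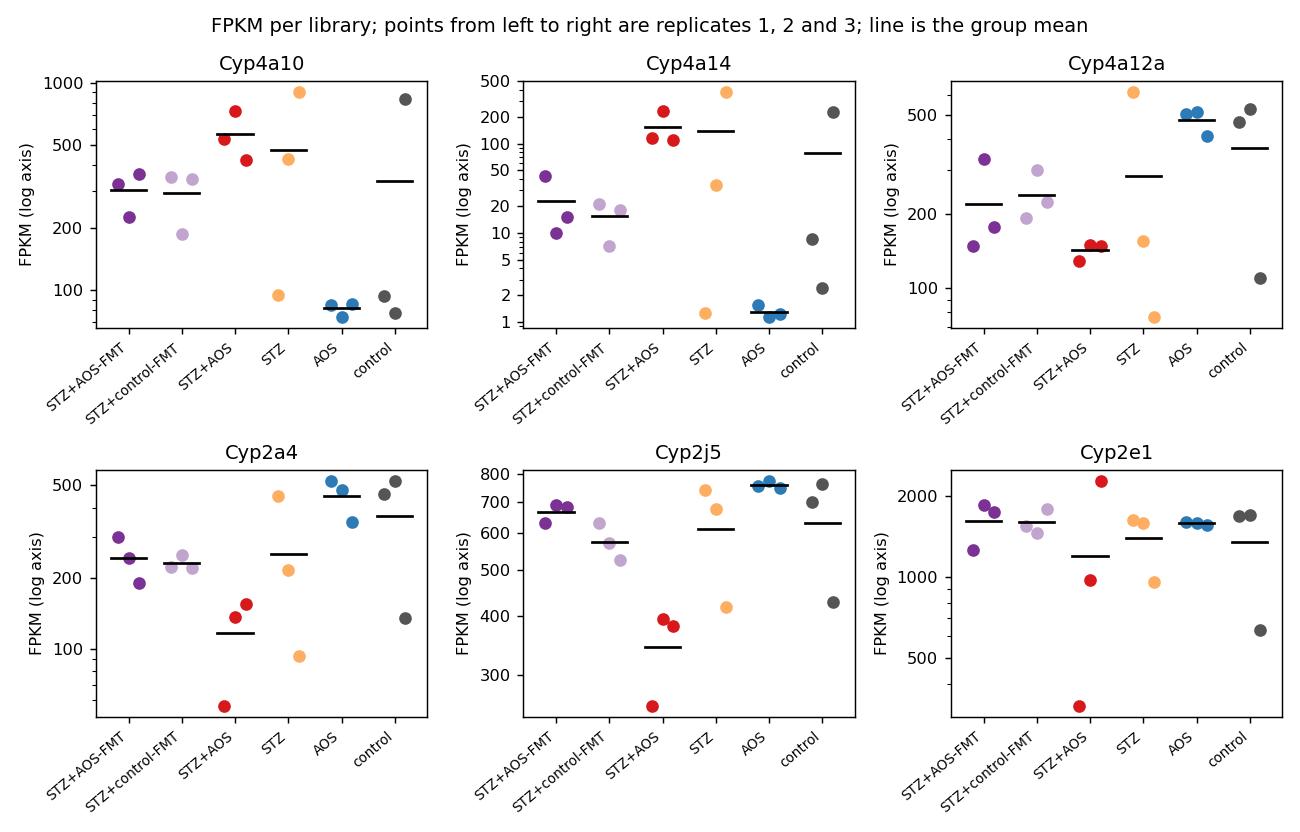
FPKM on a log axis for 6 members in the 18 libraries, with replicates 1 to 3 from left to right in each group and a line at the group mean (n = 3). Cyp4a10 and Cyp4a14 are high in STZ+AOS and low in AOS, Cyp4a12a, Cyp2a4 and Cyp2j5 the reverse, and in these 5 panels the AOS points lie closer together than those of STZ and control.

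Cyp1a1 and Cyp1b1 are the classic Ahr targets, which act on polycyclic compounds and, for Cyp1b1, on oestrogens. Cyp1b1 (chromosome 17, 79701537 to 79715061) had 16.2, 9.97 and 6.4 FPKM in STZ+AOS, 1.31, 5.5 and 0.39 in STZ, 4.07, 1.4 and 2.32 in AOS and 1.84, 0.75 and 6.96 in control, and 2.71 to 6.57 in the transfer libraries. The 3 STZ+AOS libraries lay above those of STZ and of AOS without overlap. Cyp1b1 rose in STZ+AOS against AOS by 1.70 ± 0.57 (adjusted p = 0.0272), and the difference to STZ of 2.02 ± 0.57 just missed the threshold (adjusted p = 0.0536) and was 1.90 with control 3 and STZ 1 left out. The first call was lost without STZ+AOS 1, STZ+AOS 2, AOS 2 or AOS 3 (adjusted p up to 0.103). Cyp1a1 (chromosome 9, 57687928 to 57703824) stayed at 0.41 to 1.08 FPKM in all 18 libraries, reaching 1 FPKM in 3, and had no call (STZ+AOS minus AOS 0.32 ± 0.16, adjusted p = 0.111). Cyp1a2 was at or under 0.08 FPKM.

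Both promoters hold GCGTG, the core bound by Ahr with Arnt, as shown in capitals in the 250 bases before the start (RefSeq, GRCm38.p6, chr17:79715062-79715311 on the minus strand and chr9:57697363-57697612 on the plus strand). The RefSeq start of Cyp1a1 lies inside the gene span given above, which is GENCODE's. In Cyp1b1 it is read on the other strand as CACGC, at positions 175 to 179 from the 5′ end, and in Cyp1a1 it stands at 197 to 201.
Cyp1b1: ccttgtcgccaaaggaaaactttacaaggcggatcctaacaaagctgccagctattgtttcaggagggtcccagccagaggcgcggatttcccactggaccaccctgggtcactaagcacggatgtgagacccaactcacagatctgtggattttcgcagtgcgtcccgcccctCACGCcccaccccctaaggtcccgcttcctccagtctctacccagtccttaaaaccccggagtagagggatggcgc
Cyp1a1: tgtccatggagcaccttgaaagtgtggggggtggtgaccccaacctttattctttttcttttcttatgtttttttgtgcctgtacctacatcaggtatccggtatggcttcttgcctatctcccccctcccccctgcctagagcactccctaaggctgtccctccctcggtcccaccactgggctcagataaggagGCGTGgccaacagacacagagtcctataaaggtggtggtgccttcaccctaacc
In all, 6 of 19 member promoters held GCGTG on either strand, as did 32.4% of the 32851 promoters. A pair of AGGTCA in direct repeat with 1 base between, the form bound by PPAR-alpha, was found in 0 of the 19 (0.0396% of all promoters), and AGAACA and TGTTCT with 3 bases between, the form bound by several steroid receptors, in 0 (0.00913% of all). The promoters of 10 described members, among them Cyp4a10, Cyp4a12a and Cyp4a14, were not analysed here.

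Cyp2s1 (chromosome 7, 25802475 to 25816913), an enzyme of epithelia, had 16.7, 12.8 and 10.4 FPKM in STZ+AOS, 3.82, 9.1 and 12.7 in STZ, 4.78, 4.78 and 4.95 in AOS and 4.9, 3.49 and 13.9 in control, and 7.1 to 8.46 in the transfer libraries. AOS, controls 1 and 2 and STZ 1 were all under 5 FPKM and the other 12 libraries above 7. Cyp2s1 rose in STZ+AOS against AOS by 1.27 ± 0.38 (adjusted p = 0.0174), with an adjusted p of 0.0647 without STZ+AOS 1. Cyp2f2 (chromosome 7, 27119909 to 27133660), which activates naphthalene in mouse airway, had 3.51, 2.09 and 7.2 FPKM in STZ+AOS, 0.51, 1.56 and 3.54 in STZ, 0.62, 0.69 and 0.24 in AOS and 0.64, 0.72 and 7.07 in control. The highest values of Cyp2f2 were in STZ+AOS 3 and control 3, 2 of the 3 libraries with Cyp11b1, the last enzyme of corticosterone synthesis, above 100 FPKM. The other, STZ+AOS 1, had the most Cyp11b1 (316 FPKM) but 3.51 FPKM of Cyp2f2, under the 3.54 of STZ 3. Cyp2f2 rose in STZ+AOS against AOS by 1.69 ± 0.54 (adjusted p = 0.0222), lost without STZ+AOS 1, STZ+AOS 3 or AOS 3 (adjusted p up to 0.0756). Cyp2b10, the classic target of the receptor CAR, was at 18.4 FPKM in STZ+AOS 3 and at most 1.45 in the other 17 libraries, so its mean rests on 1 library. Cyp2u1, a fatty acid hydroxylase, was at 0.5 to 1.47 FPKM, with AOS at 0.86, 0.66 and 0.5 and control at 0.77, 1.47 and 1 (difference -0.31 ± 0.18, adjusted p = 0.817). Without control 3 it was -0.33 (adjusted p = 1.00).

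The other 44 members were below the level set for description, and 37 of them stayed under 1 FPKM in all 18 libraries. None of the 8 Cyp3a genes, which in liver and gut metabolise steroids and many drugs, was described. The highest value among the 44 was 2.06 FPKM of Cyp3a11 in STZ+control-FMT 1. Cyp3a11 and Cyp4a30b reached 1 FPKM in 2 libraries, just under the limit of 3, and Cyp2d10, Cyp2j8, Cyp4f14, Cyp4f18 and Cyp2c69 in 1. Cyp1a1 and Cyp2b10 stood just inside it, with 3 libraries each. Cyp2a22, Cyp2b19 and Cyp2c66 were listed at 0 in all 18. Read depth is unknown, so no limit can be given for genes listed at 0. Markers of liver, where many of these genes are most active, were low throughout. Albumin was at 1.45 to 10.2 FPKM and the 8 liver markers summed to 6.16 to 57.9 FPKM.

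No member passed between the transfer groups. Between STZ+AOS-FMT and STZ+control-FMT 4 members lay higher without overlap (Cyp2a5, Cyp2d26, Cyp2j5 and Cyp2j9), which is 13.8% against 6.39% of all genes, and 1 lower (Cyp4a12b), 3.45% against 4.85%. Cyp4a12b had 3.68, 4.25 and 2.18 FPKM in STZ+AOS-FMT and 6.48, 5.85 and 5.84 in STZ+control-FMT (difference -0.72 ± 0.52, adjusted p = 1.00). Cyp2j5 had 631, 689 and 680.1 FPKM in STZ+AOS-FMT and 629.8, 572 and 525 in STZ+control-FMT (difference 0.21 ± 0.23, adjusted p = 1.00). Cyp4f17 had 5.1, 5.96 and 6.88 FPKM in STZ+AOS-FMT and 5.86, 3.8 and 4.59 in STZ+control-FMT (difference 0.29 ± 0.21, adjusted p = 1.00). Over the 29 members the differences ran from -0.72 (Cyp4a12b) to 0.83 (Cyp2a5). Against STZ the smallest p in the STZ+AOS-FMT group belonged to Cyp4a12b, at -1.01 ± 0.52 (adjusted p = 1.00), and -0.35 with control 3 and STZ 1 left out. Cyp4a14 in the 6 transfer libraries, at 7.18 to 43 FPKM, lay above every AOS library and under every STZ+AOS library. Differences between the transfer groups and those 2 groups were not tested.

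Genes outside the families that work with or control these enzymes were read from lists chosen with earlier results of these data known. Por, the oxidoreductase that feeds electrons to all of them, had no call, with 115, 200.4 and 151 FPKM in STZ+AOS, 144, 141 and 151 in STZ, 152, 164 and 166 in AOS and 126, 147 and 152 in control (STZ+AOS minus AOS -0.08 ± 0.16, adjusted p = 0.674). Of the 12 electron donors and partner enzymes, 2 rose and 4 fell in STZ+AOS against AOS, where 39.3% of all genes were called higher and 7.18% lower. Ephx1, the microsomal epoxide hydrolase, rose by 3.18 ± 0.88 (adjusted p = 0.013), with 143, 194 and 129.8 FPKM in STZ+AOS and 19.1, 15.7 and 13.7 in AOS. Ephx2, which breaks down the epoxides made by Cyp2j and Cyp2c enzymes, fell by 0.85 ± 0.23 on the log2 scale (adjusted p = 0.0112), with 119, 223 and 165 FPKM in STZ+AOS and 293, 281 and 315 in AOS. Cyb5a, Aldh3a2 and Fmo1 fell as well, and Pgrmc1 rose. Fmo1 alone of the 12 fell in STZ+AOS against STZ, and 0 rose, where 1.1% of all genes were called lower and 3.44% higher.

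A list of 23 genes held receptors and factors that control P450 genes, and also the enzyme Nqo1, which is not one of them. Of the 23, 21 were tested. There were 2 that rose in STZ+AOS against AOS (Ahr and its partner Arnt) and 2 that fell (Esr1 and Hlf), beside the 39.3% and 7.18% of all genes called higher and lower. Ppara had no call, at 0.13 ± 0.21 (adjusted p = 0.612). Of 20 PPAR-alpha targets outside the P450 genes 18 were tested, and 8 rose and 0 fell, a share called higher near the 39.3% of all genes. Acot1, a thioesterase of long fatty acids, rose by 1.99 ± 0.56 (adjusted p = 0.0135), with 156, 147 and 69.3 FPKM in STZ+AOS, 33.9, 139 and 159 in STZ, 29.1, 26 and 31.1 in AOS and 35.7, 26.2 and 119.8 in control. AOS, controls 1 and 2 and STZ 1 were the 6 lowest of these 12 libraries in Acot1, as in Cyp4a10. Those that rose also included Pdk4, Angptl4, Acot2, Slc25a20, Acsl1 and Vnn1, and the median of the 18 was 0.74, against 0.29 for all genes. Against STZ, limma called 1 of the 18 higher in STZ+AOS, Pdk4 (1.68 ± 0.37, adjusted p = 0.037), beside 3.44% of all genes.

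Of 10 androgen-responsive genes of the proximal tubule, 8 fell and 0 rose in STZ+AOS against AOS, with a median of -2.03, beside 7.18% of all genes called lower. Kap, the androgen-regulated protein of the tubule, had 6174, 35781 and 41198 FPKM in STZ+AOS, 144830.4, 63552 and 14615 in STZ, 144521, 155154 and 153075 in AOS and 150876, 145522 and 15798 in control, and 54474 to 85880.2 in the transfer libraries. The 3 AOS libraries, controls 1 and 2 and STZ 1, which were the lowest in Cyp4a10 and Cyp2s1 and the highest in Cyp4a12a and Cyp2a4, were also the highest in Kap, as the plots against Kap show. Control 3 and STZ 3 had less Kap than any transfer library. In the same comparison, with the same 39.3% and 7.18% of all genes called higher and lower, 5 of 8 proximal tubule markers fell and 0 rose, 8 of 8 adrenal cortex markers and 5 of 5 adrenal medulla markers rose, 4 of 4 markers of injured tubule rose, 0 of 5 tested liver markers and 0 of 4 spermatid markers passed, and 1 of 4 fat markers rose. The androgen-responsive and proximal tubule lists share Slc22a6, so they are not independent of each other. Spermatid markers fell in 4 of 4 genes in STZ+AOS against STZ (1.1% of all genes called lower) and in AOS against control (0.071%). They also fell in 4 of 4 genes in STZ+AOS-FMT against STZ (0.11%) and in STZ+control-FMT against STZ (0.103%). Against STZ, 2 of 8 proximal tubule markers fell in STZ+AOS, and 2 of 8 adrenal cortex and 5 of 5 adrenal medulla markers rose. There 3.44% of all genes were called higher and 1.1% lower. Havcr1, the kidney injury molecule, had 423, 32 and 7.45 FPKM in STZ+AOS, 1.3, 5.87 and 5.16 in STZ, 2.27, 1.63 and 2.06 in AOS and 2.03, 1.85 and 19.4 in control. The part of these markers in the differences of the members was not tested. With the 3 libraries of Cyp11b1 above 100 FPKM left out (STZ+AOS 1, STZ+AOS 3 and control 3), STZ+AOS was a lone library assumed to vary like the others, and 3 members passed against AOS (5.88% of all genes): Cyp2j5, Cyp4a12b and Cyp2j9. Cyp4a10, Cyp4a14 and Cyp2a4 then differed by 3.15 (adjusted p = 0.0511), 6.67 (0.0531) and -1.70 (0.0683), against 2.74, 5.97 and -2.05 with all libraries.

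**Figure D5:**
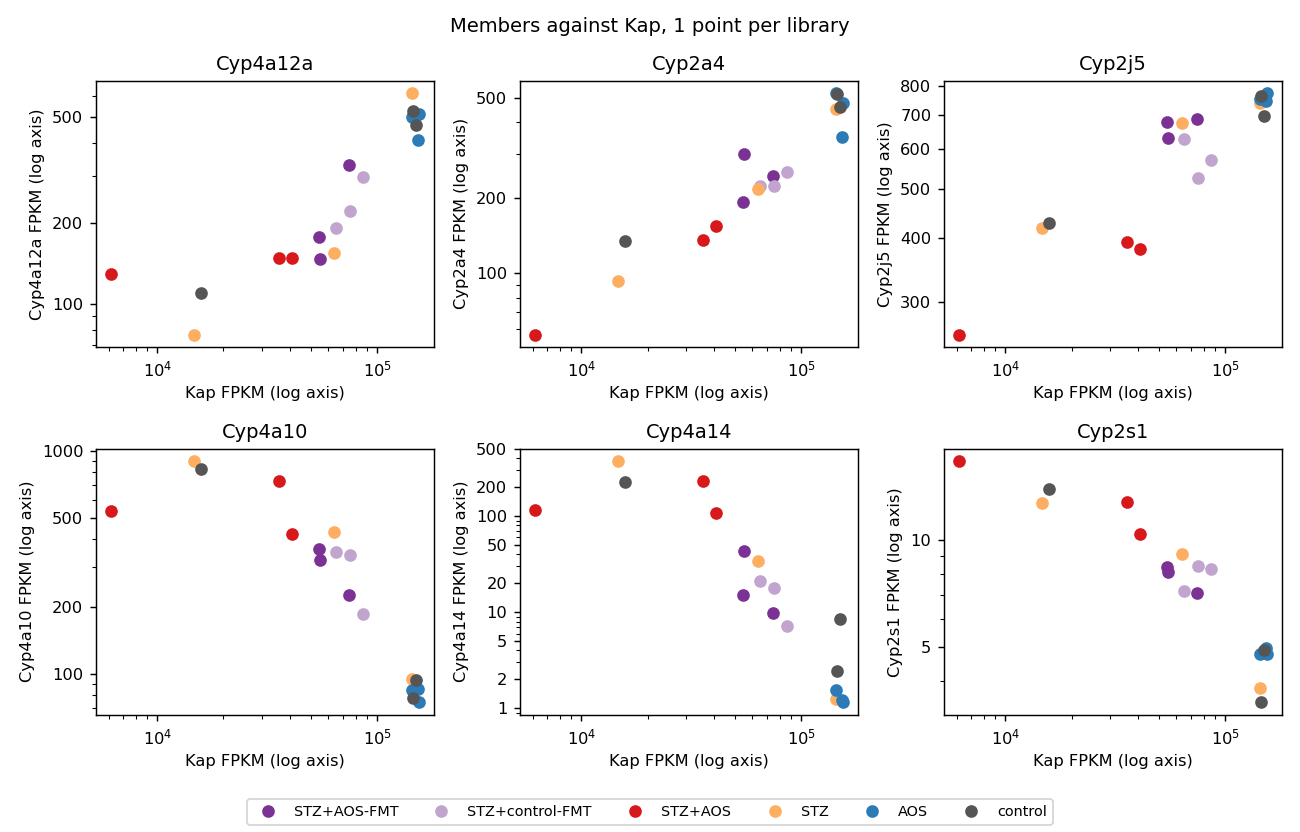
FPKM of 6 members against FPKM of Kap, both on log axes, with 1 point per library coloured by group. Cyp4a12a, Cyp2a4 and Cyp2j5 (upper row) are high where Kap is high, and Cyp4a10, Cyp4a14 and Cyp2s1 (lower row) are low there; 1 STZ point lies with the AOS points at the right and 1 control point with the low-Kap points at the left.

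Scaling bears on all of these differences. Rescaling by the median of ratios moved the median of all genes in STZ+AOS against AOS to -0.0066 from the 0.29 of the values as deposited, and turned the calls over all genes to 1723 higher and 2499 lower, against 4985 higher and 910 lower. Among the members, 11 then passed, 7 higher and 4 lower, and all 11 were among the 14 called before. Those lost were Cyp1b1 (adjusted p = 0.0573), Cyp2c23 (0.0719) and Cyp4f16 (0.117). Relative to the median of all genes as deposited, the 10 members that rose stood at 0.45 (Cyp4f16) to 5.68 (Cyp4a14) and the 4 that fell at -1.32 (Cyp2j11) to -2.34 (Cyp2a4). None of the 14 changed direction under this rescaling, quantile normalization or rescaling to the total without Kap. The median of all genes in STZ+AOS against STZ was 0.19 as deposited and -0.0079 after rescaling by the median of ratios, which turned 436 higher and 139 lower calls into 213 higher and 592 lower, and Cyp4f17 then had an adjusted p of 0.0562.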

How the data were processed

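RNA from 18 mouse kidney samples in 6 groups of 3 was sequenced as Illumina libraries from total RNA, per the labels. The deposited table holds 1 value per gene and library, read here as the authors' FPKM. That unit is not labelled and was inferred from the deposited values: summed after multiplying by gene length they varied by 0.941% between libraries, and plainly by 5.47%. Bowtie 0.12.2 and mm10 are named in the submitters' processing notes; tool, annotation and filters of the counting step were not given in the sources used here. Deposited values have 2 decimals, and read depth was not derived from them. Depth is thus unknown here and no counting intervals are given. Per library 11407 to 12607 genes reached 1 FPKM.

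Genes with at least 1 FPKM in 3 of 18 libraries (12682) entered limma 3.58.1 (R 4.3.3; trend and robust) on log2(FPKM + 1), with 1 mean per group, 8 comparisons, Benjamini-Hochberg adjustment over all genes and a threshold of 0.05. Fold changes on this scale understate low genes. Values are given by sample for the 12 most abundant members, every called member and the 3 with the smallest p per comparison. The members and lists were chosen with earlier results of these data known. Alternatives varied the scaling, filter, pseudocount, trend, library weights, replicate block, groups fitted and each library; leaving out control 3 with STZ 1 or the libraries high in Cyp11b1, and rescaling without Kap, were chosen after the data were seen. Positions are GENCODE vM21 (mm10), and promoters are RefSeq's; all 73 members had a position and 19 of the 29 described a promoter. Shared 50-base words were counted between transcripts of different genes.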

Additional observations from a re-analysis of the deposited data

How the results depend on the processing

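Members passing in STZ+AOS against STZ numbered 1 in the fit reported, where 4.53% of all genes were called. The count was 0 under quantile normalization, median-of-ratios rescaling, a pseudocount of 0.1, library weights or only the groups compared. It was 2 without the filter, 3 with a pseudocount of 5, and 0 to 8 without 1 library. With control 3 and STZ 1 left out, or the libraries with Cyp11b1 above 100 FPKM, it was 0, and 3 after rescaling to the total without Kap. In STZ+AOS against AOS the count of 14, with 46.5% of all genes called, became 9 under quantile normalization. It was 22 with library weights and 8 to 13 without 1 library. No share of all genes is given here for the other settings of this section, so these counts are not read as results about the members. For STZ against control the count was 0, and 9 with control 3 and STZ 1 left out, which were picked by these genes. For the interaction the count was 0, and 0 to 6 without 1 library. The difference of Cyp4a32 between STZ+AOS-FMT and STZ ran from -1.13 to 0.17 without 1 library, positive without STZ 1 alone, and was 0.17 with control 3 out as well. The cause of these changes was not tested. Same-numbered libraries did not deviate together throughout (45 correlations from -0.258 to 0.667, 15 over 0.1, and 9 of 18 libraries closest to their own number). In STZ and control they did for replicate 1 (0.544) and replicate 3 (0.667), but not for replicate 2 (-0.165). The numbers were not taken as pairs. With the replicate block 2 members passed in STZ+AOS against STZ and 16 in STZ+AOS against AOS. Among values of single members, 31 without 1 library and 31 under other settings lost the threshold, 6 and 7 gained it, and no direction changed but that of Cyp4a32. Without read depth, zeros and values under 1 FPKM carry no limit of detection.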

Other observations

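P450 genes of other families were read beside the members, as 11 tested genes of a list of 13. Of these 7 rose and 1 fell in limma's fit of STZ+AOS against AOS, where 39.3% of all genes were called higher and 7.18% lower. Cyp11a1 and Cyp21a1, steroid enzymes of the adrenal cortex, rose, with 744, 34.1 and 481 FPKM in STZ+AOS, 0.11, 9.75 and 13.9 in STZ, 0.19, 0.08 and 0.23 in AOS and 0.04, 0.11 and 247 in control for Cyp21a1. Cyp26b1, which breaks down retinoic acid, rose by 1.99 ± 0.55 (adjusted p = 0.0134), with 4.65, 4.6 and 9.31 FPKM in STZ+AOS and 0.72, 0.2 and 1.52 in AOS. Cyp27a1, a mitochondrial sterol hydroxylase, rose by 0.81 ± 0.27 (adjusted p = 0.0246), with 31.4, 33.8 and 70.7 FPKM in STZ+AOS and 23.5, 24.2 and 23.2 in AOS, where STZ+AOS 3 stood highest. Cyp51, an enzyme of cholesterol synthesis, fell by 1.15 ± 0.29 on the log2 scale (adjusted p = 0.00921), with 22.6, 56.5 and 50 FPKM in STZ+AOS and 87.7, 89.7 and 93.8 in AOS, so that the groups did not overlap. Cyp20a1, Cyp39a1 and Cyp46a1 rose by less than 1 on that scale.

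Both vitamin D enzymes of the tubule had no call in any comparison. Cyp27b1, which makes active vitamin D, had 3.7, 4.92 and 5.81 FPKM in STZ+AOS, 1.14, 5.37 and 17.9 in STZ, 0.82, 2.33 and 2.77 in AOS and 1.52, 0.75 and 27.3 in control. Control 3, at 27.3 FPKM, was the highest of these 12 libraries and control 2 among the lowest. Cyp24a1, which inactivates it, had 17.8, 46.2 and 20.3 FPKM in STZ+AOS, 12.9, 10.3 and 64.3 in STZ, 32.7, 28.8 and 15 in AOS and 37.2, 7.55 and 30.8 in control, with each group overlapping the others.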
